A study of Mus musculus with 3 samples.

Results

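The genes described here are 9 interferon-induced antiviral effectors of the mouse: the 2'-5'-oligoadenylate synthetases Oas1a, Oas2 and Oas3, the synthetase-like genes Oasl1 and Oasl2, the RNA-dependent protein kinase gene Eif2ak2 (PKR), the dynamin-like GTPase genes Mx1 and Mx2, and Bst2 (tetherin). The genes were listed by name, and their probes were found by matching the accession of each probe to a mouse gene symbol. Of the 9 listed genes, 7 had a matched probe, with 9 probes in all, among 22908 features with a gene symbol and 45616 named features on the array. No probe carried an accession that the gene table gives for Mx1 or Mx2, which that table lists as transcribed pseudogenes, so no value is given for these genes.

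To examine gene expression after overexpression of Mst1r or Slpi, RNA of the mouse hepatoma cell line Hepa1c1c7 was measured on single-colour Agilent arrays. One culture was transfected with the empty vector pCMV6-Kan/Neo. The others received a vector carrying the open reading frame of Mst1r, a receptor tyrosine kinase, or of Slpi, a secreted protease inhibitor. All 3 groups therefore shared the cell line and the exposure to plasmid DNA and transfection reagent, and no untransfected culture was analysed here. Each group was 1 array, so no difference below has a replicate check and no test between groups could be made. The arrays measured RNA of whole cultures, in which fewer cells making a transcript and less transcript per cell cannot be told apart, and the share of cells that took up a vector is not given in the sources used here.

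Cells that sense viral RNA or DNA secrete type I interferon, which acts through a receptor on the cell surface and a transcription factor complex that includes STAT2 and IRF9. This complex binds an interferon-stimulated response element in the promoters of the effector genes. Most OAS enzymes bind double-stranded RNA and make short 2'-5'-linked oligoadenylates, which act as a second messenger in the antiviral response. PKR binds double-stranded RNA too and blocks translation by phosphorylating the initiation factor eIF2 alpha, while tetherin holds budding virus particles on the cell surface.

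Promoter sequences are shown first because the genes are grouped by a common inducer, and the sequence shows which of them match the letters of its element close to the start site. RefSeq promoter windows of the build GRCm38.p6 covered 250 bases before and 50 bases after the start of a gene and were held for 6 of the 9 genes, not for Oas2, Mx1 or Mx2. The core of the response element was searched as GAAANNGAA on both strands. It was found in 2812 of 32851 promoters of the table (8.56%), with 2 or more matches in 0.624%. Of the 6 windows, 4 held it, those of Oas1a, Oas3, Eif2ak2 and Bst2. In each of these 4 the motif occurred 2 times on the strand of the gene, and the matches overlapped, with starts 6 bases apart. The overlapping matches are in capitals in the following sequences, which run 5′ to 3′ on the strand of the gene.

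Oas1a, chr5:120907511-120907565, minus strand, match at -20 to -6 from the start: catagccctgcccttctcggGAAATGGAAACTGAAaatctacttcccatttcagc

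Oas3, chr5:120777700-120777754, minus strand, match at -75 to -61: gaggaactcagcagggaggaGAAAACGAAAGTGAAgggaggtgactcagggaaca

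Eif2ak2, chr17:78882533-78882561, minus strand, match at 19 to 33 after the start: ccgccggGAAAACGAAACAGAAgagaacc

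Bst2, chr8:71537568-71537622, minus strand, match at -130 to -116: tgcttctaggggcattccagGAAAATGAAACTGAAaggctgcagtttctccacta

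The windows of Oasl1 and Oasl2 held no match to these letters. Their last 100 bases before the start are shown for comparison, with no capitals because no motif was found.

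Oasl1, chr5:114923140-114923239, plus strand: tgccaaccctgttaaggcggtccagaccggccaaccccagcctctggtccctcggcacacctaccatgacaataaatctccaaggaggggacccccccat

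Oasl2, chr5:114896834-114896933, plus strand: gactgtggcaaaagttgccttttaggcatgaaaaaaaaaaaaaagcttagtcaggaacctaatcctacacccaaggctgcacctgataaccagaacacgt

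The gamma-activated site, an element of interferon gamma signalling searched as TTCNNNGAA, was found in 8.30% of all promoters and in 3 of the 6 windows, those of Oas1a, Eif2ak2 and Bst2. In the Bst2 sequence shown, its letters (ttccagGAA) overlap those of the first motif. A match of letters is a description of the window and not a measured binding site, and binding was not measured in these cells. Variant letters of the motifs and positions outside the windows were not searched.

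The signal of a probe is given as processed signal, the background-subtracted intensity of its spot on a linear scale. Differences are log2 of the processed signal after the 75th percentile of each array was subtracted. The value after ± is the SD of the difference that repeated spots of 1 array give at that signal level, and it covers no variation between cultures. It rests on few repeated probes at middle signals. For log2 signals of 8 to 10, 10 to 12 and 12 to 14 there were 9, 12 and 19 pairs of probe and array, against 800 above 14. A difference is called beyond the spot error where it exceeds the two-sided 95% limit of a normal error with this SD, which is a description of the spots and no test between groups. Signals of different probes cannot be set against each other. The arrays differed in brightness, with 75th percentiles of 268 (empty vector), 229 (Mst1r vector) and 254 (Slpi vector). Scaling therefore added 0.23 to each unscaled difference between the Mst1r and empty vector arrays, and added 0.08 for the Slpi vector array. Neither transfected gene checked its label on these arrays. The paper reports overexpression of Mst1r in Hepa1c1c7 cells by real-time PCR, which was not analysed here. Whether the Mst1r probe lies in the transfected reading frame was not tested. The Mst1r probe was well above background on none of the 3 arrays (4.15, 4.08 and 3.70), and the brighter Slpi probe gave 6459 (empty vector), 3843 (Mst1r vector) and 6680 (Slpi vector). The group names below mean the arrays labelled so. Of 10 hepatocyte markers, Afp, Trf and Alb had a mean signal over 50, while on no array were Apob, Hnf4a and Ahsg well above background.

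All 7 measured genes had a probe that was well above background on all 3 arrays. With Mst1r vector, Oas2, Oasl1 and Oasl2 were 1.45-fold to 1.49-fold higher than with empty vector, Oas1a and Eif2ak2 were about 1.2-fold higher, and Bst2 differed by less than the error between spots. With Slpi vector, none of the 7 differed from empty vector beyond the spot error.

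**Figure D1:**
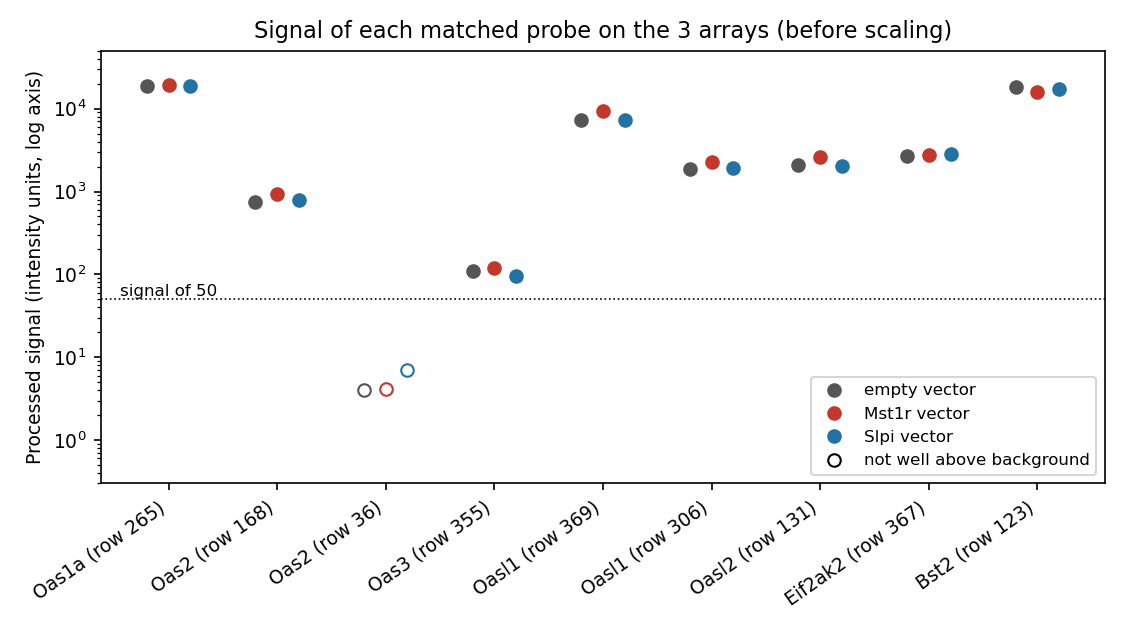
Processed signal of each of the 9 matched probes (log axis, intensity units, before scaling) on the empty vector, Mst1r vector and Slpi vector arrays, 1 array each, with the array row of the probe in brackets. Open points are not well above background, and the dotted line is a signal of 50. The Mst1r vector array is the highest of the 3 for Oas1a, the brighter Oas2 probe, Oas3, both Oasl1 probes and Oasl2, and the lowest for Bst2.

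Among the synthetases, Oas1a makes oligoadenylates in the mouse and is the usual mouse counterpart of human OAS1. Its probe gave 18923 (empty vector), 19270 (Mst1r vector) and 18713 (Slpi vector). The 3 signals were nearly equal, and the unscaled difference between the Mst1r and empty vector arrays was 0.03. After scaling it was 0.26 ± 0.08 with Mst1r vector and 0.06 ± 0.08 with Slpi vector, so most of the former value came from the scaling. The RNA of Oas1 paralogs can be similar in sequence, and whether the Oas1a probe also binds it was not tested.

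Oas2 encodes a larger synthetase than Oas1a. Its brighter probe, in row 168 of the array, gave 743 (empty vector), 939 (Mst1r vector) and 789 (Slpi vector). The Mst1r vector array was the highest, and the difference from empty vector was 0.57 ± 0.14 (1.48-fold), against 0.17 ± 0.14 with Slpi vector. A second Oas2 probe with the same accession, in row 36, gave 4.07, 4.16 and 6.94. It was well above background on none of the 3 arrays and gives no fold.

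Oas3 encodes the largest synthetase. Its probe was dim, with 109 (empty vector), 119 (Mst1r vector) and 95.8 (Slpi vector). The difference from empty vector was 0.35 ± 0.24 with Mst1r vector and -0.11 ± 0.24 with Slpi vector. Both were within the spot error and could not be told from it at this signal.

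Oasl1 encodes a synthetase-like protein without enzyme activity that is known to hold back translation of Irf7 mRNA. It was measured by 2 probes with the same accession. The probe in row 369 gave 7349 (empty vector), 9333 (Mst1r vector) and 7238 (Slpi vector). The probe in row 306 gave 1850, 2244 and 1929 in the same order. On both probes the Mst1r vector array was the highest, and the other two were close to each other. The difference between Mst1r and empty vector was 0.57 ± 0.13 on the first probe (1.49-fold) and 0.51 ± 0.12 on the second (1.42-fold). With Slpi vector it was 0.06 ± 0.13 and 0.14 ± 0.12. The probes differed less from each other than the pooled SD between probes of 1 gene, which was 0.26 over 3907 genes with more than 1 probe.

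Oasl2, the other synthetase-like gene of the mouse, encodes a protein that retains synthetase activity. Its probe gave 2103 (empty vector), 2593 (Mst1r vector) and 2040 (Slpi vector). As for Oasl1, only the Mst1r vector array stood above the others, by 0.53 ± 0.12 from empty vector (1.45-fold), while the difference with Slpi vector was 0.03 ± 0.12.

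Eif2ak2 (PKR) gave 2689 (empty vector), 2752 (Mst1r vector) and 2850 (Slpi vector). Before scaling the Slpi vector array was the highest, and the unscaled difference with Mst1r vector was 0.03. After scaling the difference from empty vector was 0.26 ± 0.12 for the Mst1r vector and 0.16 ± 0.12 for the Slpi vector. The vectors differed from each other by 0.10 ± 0.12.

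Bst2 gave 18030 (empty vector), 16109 (Mst1r vector) and 17180 (Slpi vector), and was the only measured gene of the 7 that was dimmest on the Mst1r vector array. Scaling turned the difference from -0.16 to 0.07 ± 0.11 with Mst1r vector and from -0.07 to 0.01 ± 0.08 with Slpi vector, and spike-in scaling gave -0.03 with Mst1r vector, so its direction is not settled.

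**Figure D2:**
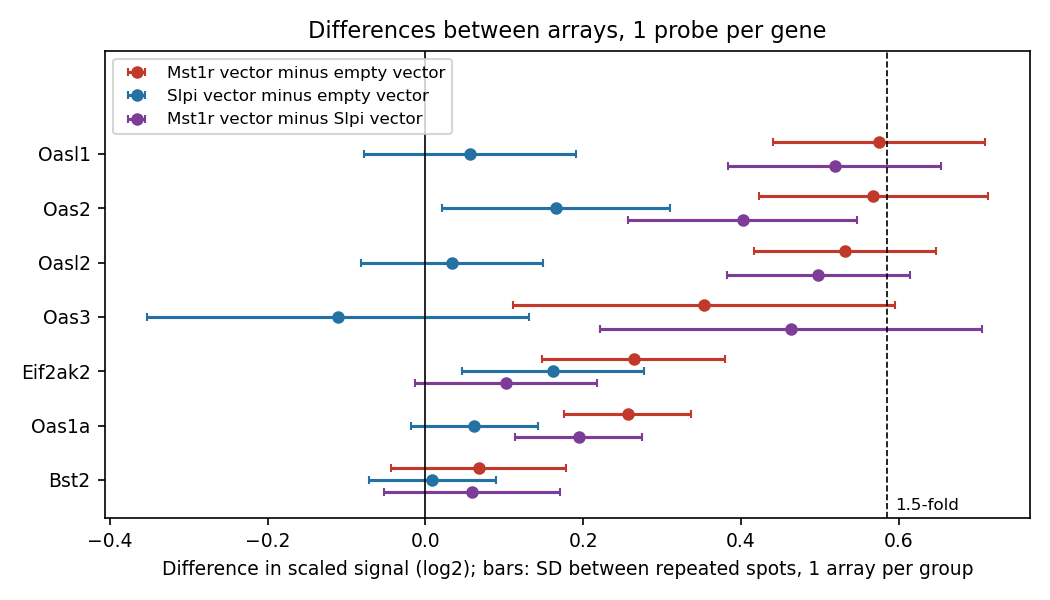
Difference in scaled signal (log2) for the 7 measured genes, 1 probe per gene, between Mst1r and empty vector, Slpi and empty vector, and Mst1r and Slpi vector. Bars are the SD of the difference from repeated spots, with 1 array per group, and the dashed line marks 1.5-fold. Oasl1, Oas2 and Oasl2 lie at 0.53 to 0.57 with Mst1r vector against empty vector, and all 7 differences with Slpi vector lie between -0.11 and 0.17.

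The 7 genes were then set beside all named features with a signal over 50 on the brighter of the 2 arrays compared. With Mst1r vector 7 of 7 were higher than with empty vector, where 42.3% of 18026 features were higher. Of the 7, 5 (Oas1a, Oas2, Oasl1, Oasl2 and Eif2ak2) were higher beyond the spot error, against 10.4% of all features. None was lower beyond it, against 11.3%. None reached 1.5-fold, which 7.1% of all features did, and none reached 2-fold, against 4.38%. The median of the 7 differences was 0.35, where the median of all features with a mean signal over 50 was -0.04 and their 5th to 95th percentiles were -0.45 to 0.60. All 7 values thus lay inside the range of the middle 90% of features. The gene lists below use a mean signal over 50. By that rule 1570 of 16959 features were higher with Mst1r vector beyond the spot error and 1699 were lower.

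With Slpi vector 6 of 7 genes were higher than with empty vector, against 50.3% of 17825 features. None of the 7 was higher beyond the spot error (4.45% of all features) or by 2-fold (2.73%). None was lower beyond the spot error, against 496 of 16959 features with a mean signal over 50. The median of the 7 was 0.06, and that of all features was 0.0033. These comparisons share the empty vector array, so their values are not independent of each other.

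Between the vectors, without the empty vector array, 7 of 7 genes were higher with Mst1r than with Slpi vector (44.8% of 17695 features). This comparison uses the same Mst1r vector and Slpi vector arrays as those above, so it is no independent check of them. Of the 7, 4 were higher beyond the spot error, against 10.6% of all features, and none by 2-fold, against 4.22%. These 4 were Oas1a (0.19 ± 0.08), Oas2 (0.40 ± 0.14), Oasl1 (0.52 ± 0.13) and Oasl2 (0.50 ± 0.12). Oas3 was at 0.46 ± 0.24, within the spot error. Without scaling and with median scaling only Oasl1 and Oasl2 were beyond it, while Oas1a was at 0.04 and 0.06 and Oas2 at 0.25 and 0.27. With spike-in scaling the count was 6, and the share of all features under these scalings was not counted.

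**Figure D3:**
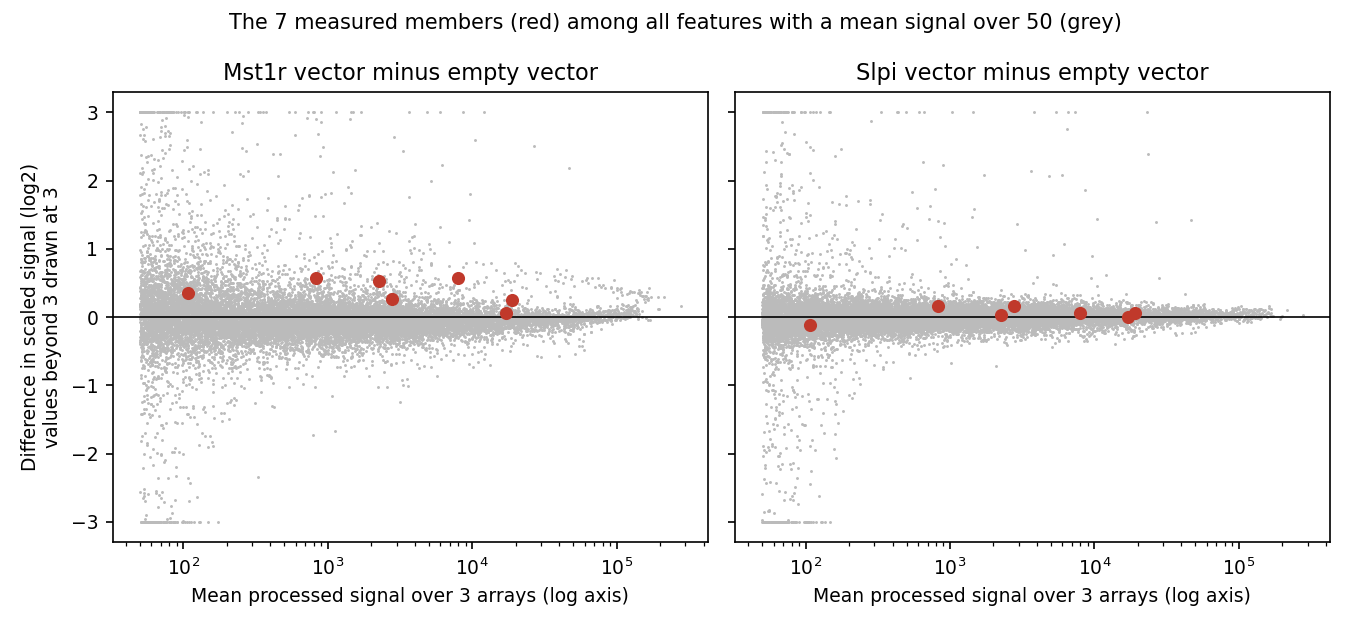
Difference in scaled signal (log2) against mean processed signal over the 3 arrays (log axis) for Mst1r and for Slpi vector against empty vector. Grey points are all features with a mean signal over 50, red points are the 7 measured genes, and values beyond 3 are drawn at 3. With Mst1r vector the red points lie between 0.07 and 0.57, within the spread of the grey points.

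The scaling between arrays set several of these counts. Without scaling the median over all features was -0.27 with Mst1r vector, and 3 of 7 genes (Oas2, Oasl1 and Oasl2) were higher beyond the spot error, at 0.34, 0.34 and 0.30. Spike-in scaling left the same 3 genes, at 0.47, 0.47 and 0.43, and Oas1a and Eif2ak2 were within the spot error at 0.15 and 0.16. A scaling that adds 1 number to every probe cannot change a gene's distance from the median of all features. That distance was 0.39 for the median of the 7 genes with Mst1r vector, and 0.33 after quantile normalization and after normexp, which do change it. With Slpi vector it was 0.05, and no sign of the Slpi vector values is settled, since spike-in scaling left 0 of 7 genes higher and median scaling left 7.

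**Figure D4:**
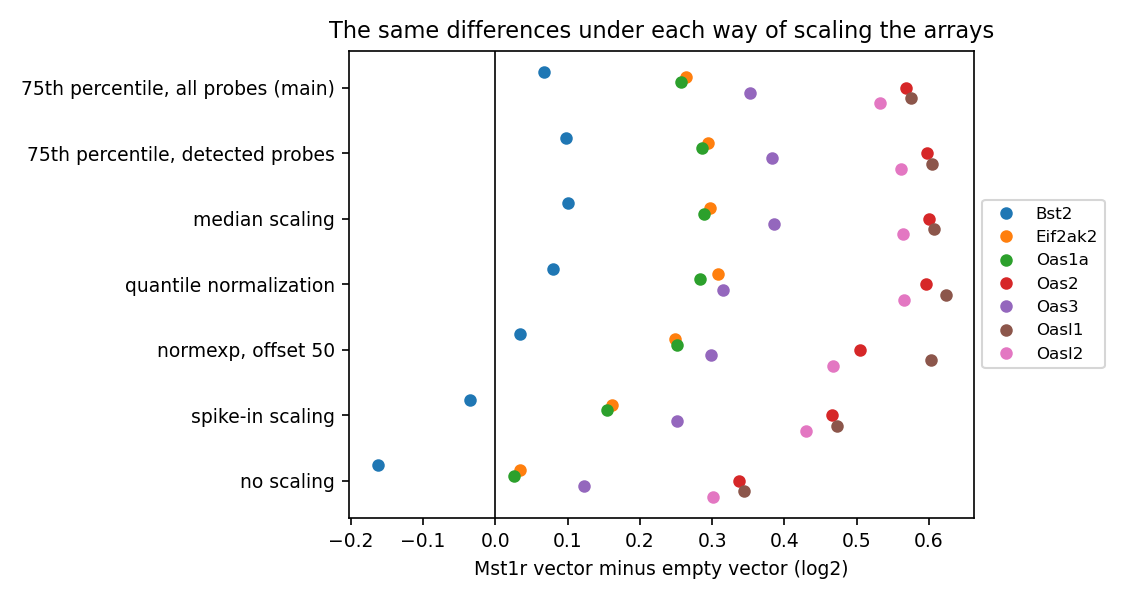
Mst1r minus empty vector difference (log2) of each of the 7 genes under 7 ways of scaling the arrays, 1 array per group. Oas2, Oasl1 and Oasl2 stay between 0.30 and 0.62 and Oas3 between 0.12 and 0.39, while Bst2 crosses 0 with spike-in scaling and with no scaling.

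The Oas1 paralogs lie beside Oas1a in the mouse genome, and several of them are known to lack synthetase activity. Of 7 listed, 6 had a probe and 5 a mean signal over 50, and Oas1b had no matched probe. Oas1f gave 8401 (empty vector), 8689 (Mst1r vector) and 8551 (Slpi vector), a difference of 0.28 ± 0.13 with Mst1r vector that was the highest among the paralogs and the only one beyond the spot error. It was within the error with spike-in scaling (0.18) and without scaling (0.05). Oas1c gave 377, 288 and 345 and was the lowest with Mst1r vector, at -0.16 ± 0.14. Oas1d (222, 173 and 218) and Oas1g (581, 555 and 566) differed by -0.13 ± 0.24 and 0.16 ± 0.14. Oas1e gave 45.6, 42.2 and 89.2, so that its value with Slpi vector was 1.05 ± 0.64, within the spot error. Its probe lay in row 104, in the upper block of rows, where control spots without a target were at times bright. Such dark control spots exceeded 50 in 30 of 2832, 40 of 2785 and 29 of 2797 cases on the 3 arrays, and 0, 2 and 1 of these lay in the rows after that block. Of the probes that stand for the 7 measured genes, only that of Bst2 (row 123) lay in the upper block, and the part of that position in its values was not tested. The probes of Oas1d (row 90) and Oas1g (row 84) lay there too. The same holds for some genes named below, such as Irf9 (row 119) and Stat2 (row 77, its brighter probe). Oas1h was well above background on none of the 3 arrays. The median of the 5 paralogs with Mst1r vector was 0.12, and 1 of the 5 was higher beyond the spot error, against 10.4% of all features. Promoter windows were held for 4 paralogs. Those of Oas1c and Oas1g held 2 matches each to the response element core, and those of Oas1f and Oas1h held none.

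Downstream of the synthetases, 2 listed genes had a mean signal over 50, and neither differed beyond the spot error with Mst1r vector. Of all features 10.4% were higher beyond it and 11.3% lower. Without scaling Abce1 was lower beyond it. Pde12, which degrades oligoadenylates, gave 413 (empty vector), 352 (Mst1r vector) and 360 (Slpi vector), a difference of -0.00 ± 0.14 with Mst1r vector. Abce1, which recycles ribosomes, gave 8605, 6704 and 7234, a difference of -0.13 ± 0.13.

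Around PKR, 10 genes of its regulators, of the other eIF2 alpha kinases and of eIF2 alpha itself and its phosphatases had a mean signal over 50, with a median of -0.05 with Mst1r vector. Of the 10, 1 was higher beyond the spot error, near the 10.4% of all features, and none was lower, against 11.3%. The higher gene was Ppp1r15a, which recruits the phosphatase that reverses the action of PKR, at 2963 (empty vector), 4979 (Mst1r vector) and 3161 (Slpi vector). This is a difference of 0.98 ± 0.13 with Mst1r vector. Prkra, a protein activator of PKR, was the lowest at -0.23 ± 0.14. Without scaling 4 of the 10 were lower beyond the spot error, and Ppp1r15a remained higher.

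For the dynamin family, to which Mx1 and Mx2 belong, the median of 6 genes was 0.05. None was higher beyond the spot error (10.4% of all features) and 1 was lower (11.3%). This was Dnm1, which pinches off vesicles at the membrane, at 5758, 3611 and 4368. Its difference was -0.44 ± 0.13 with Mst1r vector, and a second, dimmer Dnm1 probe gave -0.09 ± 0.24. With Slpi vector the brighter probe was lower beyond the spot error too, at -0.32 ± 0.13, and the dimmer gave 0.29 ± 0.24. Between the vectors the brighter probe differed by -0.12 ± 0.13, within the spot error. Dnm1l, which divides mitochondria, was the highest with Mst1r vector against empty vector, at 0.19 ± 0.12.

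Of 24 other interferon-induced antiviral effectors with a mean signal over 50, 19 were higher with Mst1r than with empty vector, 8 beyond the spot error, and 2 were lower beyond it. Among features with a signal over 50 on the brighter array, 42.3% were higher, 10.4% higher beyond the spot error and 11.3% lower beyond it. The median of the 24 was 0.18. Without scaling 10 were higher, 2 of them beyond the spot error (Rsad2 and Zbp1), 5 were lower beyond it and the median was -0.05. With spike-in scaling 17 were higher, 4 of them beyond the spot error, and the median was 0.08. The highest was Rsad2 (viperin), which makes a chain-terminating nucleotide, at 342 (empty vector), 906 (Mst1r vector) and 258 (Slpi vector). The Mst1r vector array stood far above the others, by 1.64 ± 0.14 (3.11-fold), and a second probe at lower signal gave 1.29 ± 0.64. Plscr1, a phospholipid scramblase, was the lowest at -0.40 ± 0.13. With Slpi vector none of the 24 was higher beyond the spot error (4.45% of all features) and their median was -0.03. Rsad2 was lower beyond it, at -0.33 ± 0.14, and its second probe gave -0.10 ± 0.87. Among features with a mean signal over 50, 496 of 16959 were lower beyond it. Spike-in scaling left 14 of the 24 lower beyond it with Slpi vector, and the share of all features was not counted there.

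For 10 inducers, receptors and transcription factors upstream with a mean signal over 50, the median with Mst1r vector was 0.28. Of the 10, 5 were higher beyond the spot error, against 10.4% of all features. None was lower beyond it, against 11.3%. Without scaling 4 of the 10 were higher and 1 lower beyond it, and the median was 0.05. Ifnb1, which encodes interferon beta, gave 144 (empty vector), 383 (Mst1r vector) and 122 (Slpi vector). Its difference with Mst1r vector was 1.64 ± 0.20 (3.11-fold), the highest of the 10, while Ifnar2, a chain of the interferon receptor, was the lowest at -0.16 ± 0.12. With Slpi vector none of the 10 was higher beyond the spot error (4.45% of all features). Ifnar2 was lower beyond it at -0.38 ± 0.12, and its dimmer probe gave -0.11 ± 0.14. Of 16959 features with a mean signal over 50, 496 were lower beyond it.

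Of the complex that binds the response element, Stat2 gave 1443, 2125 and 1460, with a difference of 0.79 ± 0.12 with Mst1r vector. A second Stat2 probe in row 32 gave 64.5, 19.4 and 6.27, was well above background with empty vector alone, and went the other way. Irf9 gave 1480, 1604 and 1405 (0.35 ± 0.12). Irf7, which drives interferon genes, gave 7535, 9251 and 7217 (0.53 ± 0.13). With Slpi vector, Stat2 (its brighter probe), Irf7 and Irf9 lay between 0.00 and 0.10.

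Of 11 housekeeping genes, none was higher with Mst1r vector beyond the spot error (10.4% of all features) and 1 was lower (11.3%). This was Polr2a, a subunit of RNA polymerase II, at -0.35 ± 0.13. A second Polr2a probe with the same accession gave 375, 323 and 357, a difference of 0.01 ± 0.14, so the probes disagreed. Without scaling 5 of the 11 genes were lower beyond the spot error. The scaled median of the 11 was -0.01, and the highest was Ppia, a peptidyl-prolyl isomerase, at 0.12 ± 0.08 on its brighter probe and -0.05 ± 0.08 on another. Among markers of leukocytes, endothelium and fibroblasts, 6 of 13 had a mean signal over 50. With Mst1r vector they lay between -0.26 ± 0.14 (Cd68) and 0.45 ± 0.12 (Csf1r), 3 of the 6 higher beyond the spot error, and 0 without scaling. Of all features, 10.4% were higher beyond the spot error with scaling. Of the 13, 7 were well above background on all 3 arrays, among them the leukocyte markers Csf1r, Itgam, Cd3e and Cd68, the fibroblast markers Col1a1 and Pdgfrb and, at 24.1 to 35.9, the endothelial marker Pecam1. A further 5, Ptprc, Adgre1, Cd79a, Kdr and Cdh5, were so on no array. The part of these markers in the other values was not tested. Among the hepatocyte markers the highest with Mst1r vector was Alb (albumin) at 0.57 ± 0.13, and the lowest was Trf (transferrin) at -0.21 ± 0.08.

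**Figure D5:**
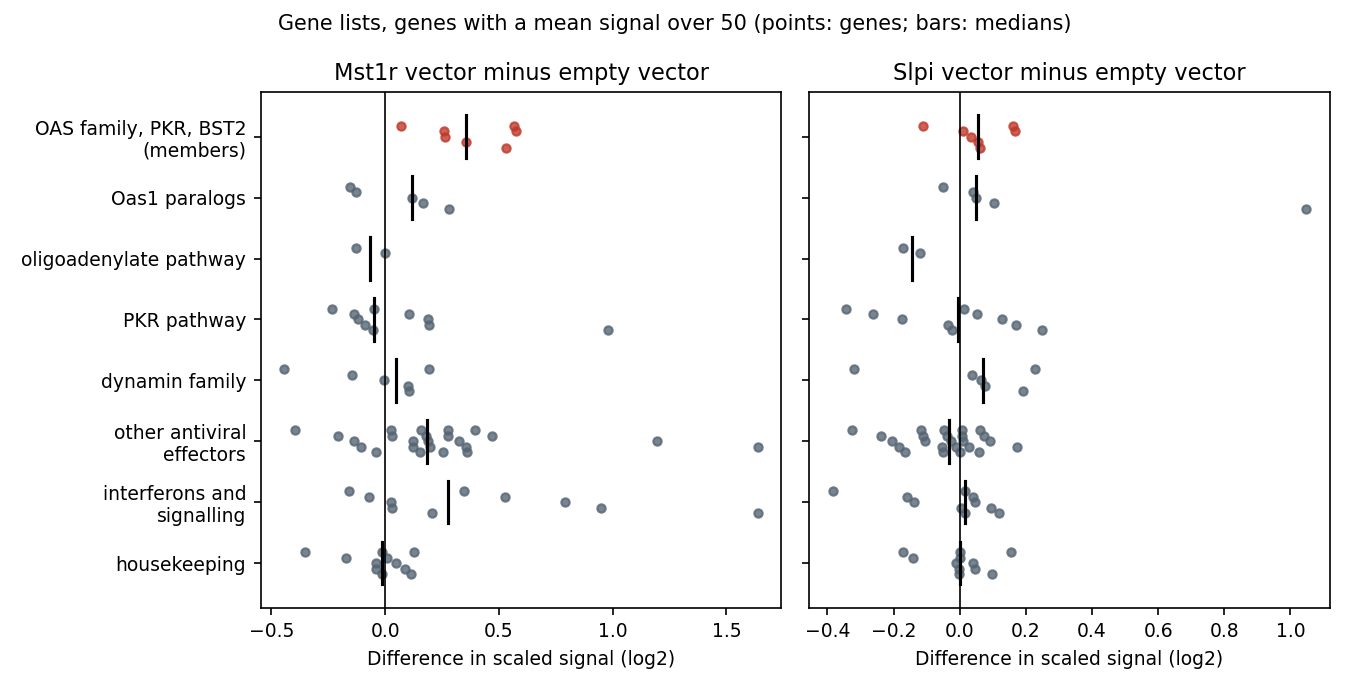
Difference in scaled signal (log2) for each gene with a mean signal over 50 in the 8 gene lists, with Mst1r and with Slpi vector against empty vector, 1 array per group. Points are genes and bars are medians. With Mst1r vector the medians are 0.35 for the 7 measured genes, 0.28 for interferons and their signalling, 0.18 for other antiviral effectors and -0.01 for housekeeping genes.

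The pattern of the 7 genes, taken as the pair of medians 0.35 with Mst1r and 0.06 with Slpi vector, was also sought among 11402 other genes well above background on all arrays. The 5 nearest by Euclidean distance over these 2 differences were Arntl2 (0.35 and 0.06), Litaf (0.36 and 0.05), Pip4p2 (0.36 and 0.05), Mpv17l (0.37 and 0.05) and C2 (0.34 and 0.07). In all, 224 of the 11402 genes lay within 0.1 of the pair.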

How the data were processed

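RNA of Hepa1c1c7 cells transfected with empty, Mst1r or Slpi vector was labelled from 100 ng and measured on 1 array per group. Per the file headers, the authors extracted spot intensities with Feature Extraction 12.0.3.1. The methods name another version. The deposited processed signal is background-subtracted and spatially detrended intensity, not scaled between arrays. The array design uses mm9.

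From these files, log2 signal was averaged over all spots of 1 probe other than those marked as outliers, and the 75th percentile over 56605 non-control probes was subtracted. Accessions were named through RefSeq genes of GRCm38.p6 (25126 of 47837 matched). A gene stands by its probe of highest mean signal. The SD between spots came from gene and spike-in probes printed at least 10 times. The minimum of the methods, a signal over 50 on 1 of the arrays compared, was kept for the shares over all features. Medians, lists and named genes used a mean signal over 50 on the 3 arrays. The number of arrays, 1 per group, limits the precision. The labels carry no replicates, and all arrays shared a slide and a scan.

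The 10 gene lists, the genes and the tests were chosen with earlier results of these data known. Named were the 9 genes with every probe, the highest and the lowest member of each other list with Mst1r vector, the Oas paralogs, Stat2, Irf9, Irf7, Ifnb1, Mst1r and Slpi, and the 5 genes of nearest pattern. A few list entries are not reported here. Of the 112 entries used, 5 had no matched probe (Mx1, Mx2, Oas1b, Ifitm2 and Ifnl2). Alternatives were other scalings, normexp on the median spot signal, the deposited table of the whole series, other probes, all spots and the rows after 128 alone. The calculation of differences was tested on simulated data. Python 3.11.15, numpy 2.4.6, pandas 2.3.3, R 4.3.3 and limma 3.58.1 were used.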

Additional observations from a re-analysis of the deposited data

How the results depend on the processing

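With Mst1r vector, the median difference of the 7 genes from empty vector was 0.12 without scaling, against 0.35. The number higher beyond the spot error was 3 without scaling and with spike-in scaling, against 5. With Slpi vector the median was 0.22 with median scaling and -0.18 with spike-in scaling, against 0.06. The number higher was 2 without scaling and 0 with spike-in scaling. Spike-in scaling left 2 genes (Oas1a and Bst2) lower beyond the spot error, and also 6 of 11 housekeeping genes. With median scaling 4 genes (Oas1a, Oas2, Eif2ak2 and Bst2) were higher beyond the spot error, and so were 5 of 11 housekeeping genes. The shares of all features were not counted under these other scalings, so the counts have no share beside them. Between the vectors the median was 0.25 without scaling, 0.27 with median scaling and 0.54 with spike-in scaling, against 0.40, and 2 genes (Oasl1 and Oasl2) were higher beyond the spot error without scaling and with median scaling, against 4. These settings moved the median of all features, by construction, to -0.27, -0.00 and -0.14 with Mst1r vector and to -0.07, 0.17 and -0.23 with Slpi vector (no scaling, median scaling and spike-in scaling). Single genes moved by more than the SD between spots in 12, 10 and 12 of 21 differences under these 3 settings, and in none under the other 8. The count of genes at least 2-fold higher was 0 under every setting. The counts of genes higher, or higher or lower beyond the spot error, were chosen as results after the data were seen, as were the counts of the other gene lists under other scalings. No paired analysis was possible because each group was 1 array and the labels give no replicate numbers. Oas3 and the dimmer probes of Oas2, Stat2 and Rsad2 were limited by signal over background.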
